A study of Mus musculus with 98 samples.

Results

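The 9 genes described here, Lgals2, Habp2, S100g, Gpat3, Adra2b, Pla2g12b, Car4, Egflam and Pga5, are a few of the 21813 gene symbols counted in a study of mouse TBLC cultures. They were chosen by their counts: the genes were listed because counts were high in PrE-T or diffTBLC libraries and near 0 in EPI-T or TBLC libraries, with no numeric threshold. The levels in those groups are therefore given as a description, without a test.

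Total RNA was sequenced from 43 groups of 2 libraries that have gene counts, and the replicates' origin in separate cultures is not stated, so p-values measure the spread between these libraries. PrE-T are CD140+ cells and EPI-T are CD140- cells, both sorted from TBLC kept in SLM for 3 days. diffTBLC is the unsorted TBLC culture after 3 days in SLM. Undifferentiated cultures in 2MYCP medium, all named TBLC, served the sorted table (TBLC), a separate table (TBLC2) and the actinomycin D course of diffTBLC (TBLC at 0 h). A further course set TBLC_PlaB-, kept in SLM for 8 h, against TBLC_Ctrl in 2MYCP medium. In diffTBLC, siVirma and siMettl3 were set against siNC without actinomycin D. During actinomycin D, read at 0, 1, 2 and 3 h, siVirma was set against siNC1 and siIgf2bp3 against siNC2. RNA immunoprecipitated from diffTBLC with antibodies to IGF2BP3 or YTHDF2 was set against input. CD140 names the platelet-derived growth factor receptors, and Pdgfra is one of their genes, so the level of Pdgfra follows the sort.

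Primitive endoderm is the layer of the blastocyst that faces the cavity and gives rise to the visceral and parietal endoderm of the yolk sac, while the epiblast gives rise to the embryo proper. Visceral endoderm takes up and secretes nutrients, lipoproteins and plasma proteins much as gut, kidney and liver epithelia do later. The 9 genes encode a lectin, a serine protease, an aspartic protease, enzymes of lipid and bicarbonate metabolism, a calcium-binding protein, a matrix protein and a receptor, several of which are best known from those adult epithelia. VIRMA and METTL3 are parts of the complex that writes N6-methyladenosine (m6A) on RNA, and IGF2BP3 and YTHDF2 are RNA-binding proteins known to read that mark.

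Promoter windows, from 250 bases before to 50 bases after an annotated start, were found for 8 of the 9 genes in the RefSeq table, whose build is GRCm38.p6. Pga5 was not matched. They were searched on both strands for letters bound by factors of the endoderm. The letters AGATAA and their variant TGATAA were searched for GATA factors. The letters ACAAAG and their variant ACAATG were searched for SOX factors. For FOX factors TGTTTAC was used, for HNF4 the letters CAAAGTCCA, and the HNF1 motif was searched too. The windows of Lgals2, Pla2g12b and S100g are shown because they held at least 1 match, and capitals mark the matched letters. The 3 windows lie at chr15:78855480-78855779 (minus strand), chr10:59403435-59403734 (plus strand) and chrX:162964550-162964849 (minus strand), and each is printed 5′ to 3′ on the strand of its gene.
Lgals2: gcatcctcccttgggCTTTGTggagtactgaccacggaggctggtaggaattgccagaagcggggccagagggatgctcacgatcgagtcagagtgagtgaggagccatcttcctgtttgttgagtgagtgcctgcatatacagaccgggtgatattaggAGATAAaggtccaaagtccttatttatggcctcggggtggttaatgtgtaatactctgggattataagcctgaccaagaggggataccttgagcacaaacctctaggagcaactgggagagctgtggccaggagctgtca
Pla2g12b: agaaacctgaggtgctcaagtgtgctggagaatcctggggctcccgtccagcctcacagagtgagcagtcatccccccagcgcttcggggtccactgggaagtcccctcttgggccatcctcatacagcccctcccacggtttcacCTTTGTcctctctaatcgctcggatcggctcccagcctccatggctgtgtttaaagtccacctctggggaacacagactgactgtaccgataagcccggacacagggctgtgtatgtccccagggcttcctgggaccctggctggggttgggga
S100g: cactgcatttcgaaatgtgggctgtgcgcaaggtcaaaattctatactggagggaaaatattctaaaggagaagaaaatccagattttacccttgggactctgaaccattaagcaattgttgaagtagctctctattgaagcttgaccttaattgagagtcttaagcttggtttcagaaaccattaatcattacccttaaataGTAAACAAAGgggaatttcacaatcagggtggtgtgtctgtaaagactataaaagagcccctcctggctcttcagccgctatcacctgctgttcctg
AGATAA was in the Lgals2 window, 90 bases before the start, against 11.2% of 32841 mouse windows of the same length. ACAAAG or its complement was in 3 of the 8 windows (Lgals2, Pla2g12b and S100g), against 18.7% of all windows. TGTTTAC was found on the opposite strand in S100g, where it overlaps the ACAAAG match and was present in 3.65% of all windows. The variants TGATAA, present in 9.05% of all windows, and ACAATG, present in 12.6%, had no match in the 8 windows. Neither had the HNF4 motif (0.475% of all windows) or the HNF1 motif (0.0609%). A match describes letters only, and the windows of Adra2b, Car4, Egflam, Gpat3 and Habp2 held none of these.

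The label of the 9 genes was checked against the sorted libraries first. A list of 24 primitive endoderm markers summed to 33748 to 34050 CPM (a gene's reads per 1000000 reads counted in a library) in PrE-T and 1012 to 1037 CPM in EPI-T, and Pdgfra was at 340 and 334 CPM in PrE-T, against 3.81 and 5.24 CPM in EPI-T. On group means, 99 genes were at 10 CPM or more in PrE-T and under 1 CPM in EPI-T, and 8 of them were listed genes, all except Car4. Of these, 11 genes in all were also under 1 CPM on the mean of the TBLC libraries of that table, among them Pla2g12b and Lgals2 of the 9, though 1 of the TBLC libraries had Lgals2 at 1.11 CPM. On group means "nearly absent outside PrE-T" thus held for 8 genes against EPI-T and for 2 against both other groups. In these bulk libraries fewer cells of a type and less RNA per cell cannot be told apart.

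Some libraries went against their labels or stood apart, which bears on the results that follow. Library totals lay between 20302848 and 29471283 counts in the sorted table, between 11433895 and 23145666 in the 64 actinomycin D libraries, between 3968442 and 4750020 in the siRNA libraries without actinomycin D and between 2483808 and 12666298 in the immunoprecipitation tables. Virma fell by 0.50 ± 0.09 (log2, SE) in siVirma relative to siNC, with an adjusted p of 1.9e-06. Mettl3 was at 26.3 and 27.4 CPM in the libraries labelled siMettl3 and 31.2 and 29.7 CPM in siNC, a log2 change of -0.18 ± 0.15 that did not pass the test (adjusted p = 0.77). In the actinomycin D tables Virma was 1.04 lower (log2, SE 0.04) in siVirma than in siNC1 over 1 to 3 h, and Igf2bp3 was 0.58 lower (SE 0.04) in siIgf2bp3 than in siNC2. At 0 h Virma differed by only -0.27 ± 0.06 between siVirma and siNC1, and Igf2bp3 was 0.56 ± 0.08 higher, not lower, in siIgf2bp3 than in siNC2. In those tables the control libraries at 0 h stood apart from their own later libraries: Igf2bp3 was at 20.4 and 17.2 CPM in siNC2 at 0 h and at 44.0 and 44.4 CPM at 1 h, while the primitive endoderm markers summed to 6290 to 6390 CPM at 0 h and 10380 to 10412 CPM at 1 h. Knockdown values at 0 h and over 1 to 3 h are therefore given side by side throughout, and the part of these control libraries in the differences was not tested.

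Among the sorted cells and their TBLC culture, all 9 genes had their highest level in PrE-T. Lgals2, which encodes galectin-2, a lectin that binds beta-galactosides, was at 158 and 183 CPM in PrE-T, at 0.401 and 0.281 CPM in EPI-T and at 1.11 and 0.443 CPM in TBLC. The PrE-T level was 492-fold that of EPI-T (95% interval 303 to 862) and 214-fold that of TBLC, intervals here and below covering counting error only.

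Habp2, which encodes a secreted serine protease that binds hyaluronan, was at 66.7 and 60.7 CPM in PrE-T, while EPI-T held 2 counts in all and TBLC had 5.45 and 4.29 CPM. Its ratio of PrE-T to EPI-T was 1479, with a wide interval from 409 to 12218 that the 2 EPI-T counts set. Pga5, a pepsinogen known as the stomach's protease precursor, was at 88.8 and 78.2 CPM in PrE-T, at 0.0801 and 0.234 CPM in EPI-T and at 1.60 and 1.48 CPM in TBLC. Both protease genes were thus high in PrE-T and low in EPI-T, but the ratio of PrE-T to TBLC was 13.04 for Habp2 and 54.4 for Pga5. Egflam encodes pikachurin, a matrix protein that binds dystroglycan. It was at 47.3 and 45.7 CPM in PrE-T, with no count in EPI-T, so that PrE-T was at least 718-fold higher with the group's floor set at 3 counts, and TBLC stood at 3.32 and 2.56 CPM.

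The enzymes of lipid metabolism divided on their TBLC level. Gpat3, a glycerol-3-phosphate acyltransferase of the endoplasmic reticulum that starts triglyceride synthesis, was at 34.9 and 38.8 CPM in PrE-T, had no count in EPI-T and was at 10.1 and 7.63 CPM in TBLC. PrE-T was at least 567-fold above EPI-T but only 4.12-fold above TBLC (95% interval 3.69 to 4.61). Pla2g12b, a catalytically inactive relative of the secreted phospholipases A2 that takes part in lipoprotein secretion, was at 48.4 and 47.3 CPM in PrE-T, with 3 counts over both EPI-T libraries and 0.576 and 0.591 CPM in TBLC. Its ratios were 739 to EPI-T (253 to 3585) and 82.1 to TBLC (55.5 to 127).

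S100g and Car4 departed furthest from the pattern. S100g encodes calbindin-D9k, a calcium-binding protein known from calcium-absorbing gut epithelium. It was at 22.4 and 30.8 CPM in PrE-T and 9.22 and 13.6 CPM in TBLC, a 2.33-fold difference, and no EPI-T library held a count. Car4 encodes a carbonic anhydrase anchored to the outer face of the membrane. It was at 15.8 and 20.7 CPM in PrE-T, 2.64 and 3.75 CPM in EPI-T and 0.842 and 0.148 CPM in TBLC, so its EPI-T level was 6.14-fold that of TBLC (3.91 to 10.1) and its PrE-T level 5.76-fold that of EPI-T (4.84 to 6.89). Adra2b, the alpha-2B adrenergic receptor, which couples to inhibitory G proteins, was at 22.1 and 23.6 CPM in PrE-T, with a single count in EPI-T and 2.30 and 2.46 CPM in TBLC. PrE-T libraries lay above TBLC libraries for each of the 9 genes, a contrast among those that chose them. In that contrast 33.5% of all 14373 genes were called higher in PrE-T.

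In the unsorted cultures the same genes were higher in diffTBLC than in TBLC at 0 h of the actinomycin D course, and the sizes ordered differently. Lgals2 was at 61.9 and 60.9 CPM in diffTBLC and had 3 counts over both TBLC libraries (759-fold, 259 to 3684). Car4 was at 26.0 and 25.2 CPM in diffTBLC, against 0.154 and 0.227 CPM in TBLC (136-fold). Its level in this unsorted culture lay above those of both PrE-T and EPI-T, which were counted and scaled separately, so this was not tested. Pga5 was at 86.5 and 83.7 CPM in diffTBLC, against 11.7 and 11.1 CPM in TBLC, the smallest ratio of the 9 at 7.46. The other 6 ratios ran from 7.75 for Gpat3 to 84.0 for Pla2g12b. There, 42.8% of 14463 genes were called higher in diffTBLC and 35.8% of 14373 genes of the sorted cells were called higher in PrE-T relative to EPI-T, both contrasts being among those that chose the genes.

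The undifferentiated cultures differed from each other. Gpat3 was at 10.1 and 7.63 CPM in TBLC of the sorted table and at 12.1 and 14.5 CPM in TBLC2, but at 2.26 and 2.44 CPM in TBLC at 0 h and at 1.27 and 1.501 CPM in TBLC_Ctrl at 0 h. S100g was at 9.22 and 13.6 CPM in the sorted table's TBLC, at 0.993 and 0.573 CPM in TBLC2 and at 0.0513 and 0.114 CPM in TBLC at 0 h. Its level in that first TBLC culture lay above the 2.55 and 2.44 CPM of diffTBLC at 0 h. Pga5 followed another order, with 11.7 and 11.1 CPM in TBLC at 0 h, 6.15 and 8.21 CPM in TBLC2, 3.42 and 3.00 CPM in TBLC_Ctrl at 0 h and 1.60 and 1.48 CPM in the sorted table. The marker sums moved as well. Primitive endoderm markers summed to 4350 to 4473 CPM in the sorted table's TBLC, 6526 to 6584 CPM in TBLC2 and 1982 to 1991 CPM in TBLC at 0 h. In the same order, 12 fibroblast markers summed to 1399 to 1454, 1886 to 1992 and 436 to 450 CPM. In TBLC_Ctrl at 0 h the primitive endoderm markers summed to 2237 to 2251 CPM and the fibroblast markers to 1219 to 1236 CPM. These tables were counted and scaled separately, so no test was made across them, and the part of the marker levels in the differences was not tested.

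**Figure D1:**
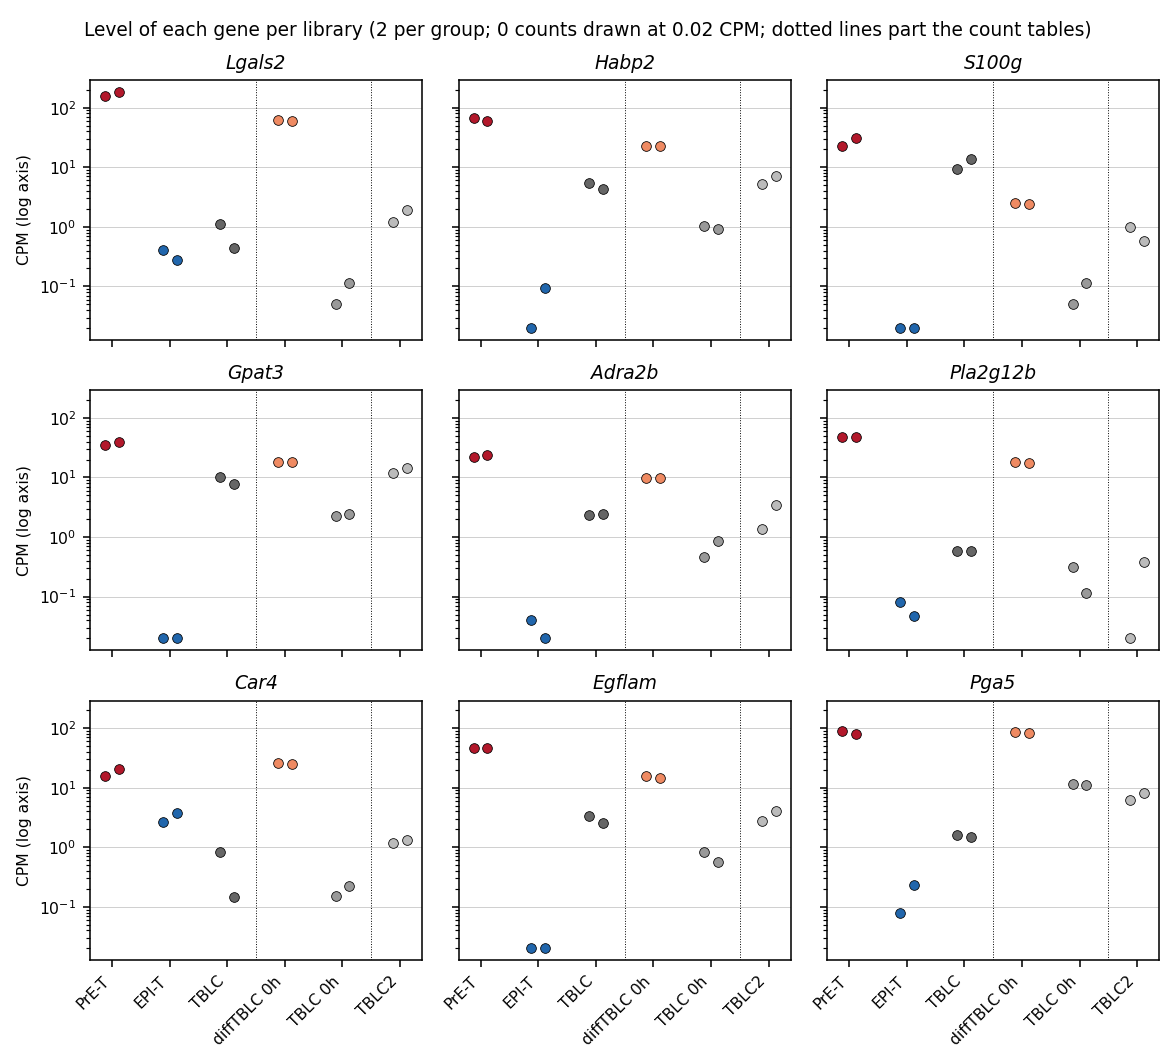
CPM of the 9 genes in each library on a log axis, with 2 points per group and libraries without a count drawn at the bottom. PrE-T lies above EPI-T and TBLC in every panel, EPI-T lies above the TBLC points of its own table only for Car4, and the TBLC points of the 3 tables lie far apart for S100g and Pga5.

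Relatives of the 9 genes did not follow one direction between PrE-T and EPI-T. All 8 tested glycerolipid acyltransferases were higher in PrE-T, among them Agpat4 (3.68 ± 0.10 on the log2 scale, SE), Agpat3 (2.31 ± 0.10) and Gpat4 (0.80 ± 0.07). Of 6 tested S100 genes 5 were higher, among them S100a1 (5.39 ± 0.39) and S100a10 (1.61 ± 0.09), and S100a16 was lower (-1.55 ± 0.60). Of 5 tested aspartic proteases 4 were higher, led by the beta-secretase relative Bace2 (5.94 ± 0.52) and the lysosomal cathepsin D gene Ctsd (2.01 ± 0.06). Of 8 serine proteases of coagulation and fibrinolysis only Plat and Plau had enough counts, and both plasminogen activator genes were higher (6.03 ± 0.47 and 2.46 ± 0.44).

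Among the other families the calls went both ways. Of 6 galectins 3 were higher, led by Lgals4 (2.76 ± 0.21), and 2 were lower, Lgals3 (-0.74 ± 0.20) and Lgals1 (-0.24 ± 0.06). Of 12 carbonic anhydrases 5 were higher, among them Car2 (1.42 ± 0.07) and Car8 (3.50 ± 0.36), and 3 were lower, Car13 (-2.21 ± 0.35), Car3 (-3.89 ± 1.17) and Car14, which had no count in PrE-T and 0.892 CPM on average in EPI-T. Of 6 adrenergic receptors, Adra2a alone was higher, at 0.587 CPM in PrE-T and no count in EPI-T, while Adrb1 (-1.65 ± 0.27) and Adrb3 (-2.88 ± 0.39) were lower. Of 6 secreted phospholipases A2 the closest relative of Pla2g12b, Pla2g12a, was higher (0.73 ± 0.12), as was Pla2g2f, and Pla2g1b (-4.69 ± 0.28), Pla2g10 (-3.67 ± 0.67) and Pla2g5 were lower. Of the 8 tested genes of the list of dystroglycan and its laminin G partners, 3 were higher and 3 lower. Dystroglycan itself (Dag1) was slightly lower (-0.34 ± 0.06). Of its other laminin G partners Lama1 (5.84 ± 0.06), Hspg2 (3.34 ± 0.05) and Agrn (1.12 ± 0.06) were higher, and Lama5 was among the lower. Each named call had an adjusted p under 0.05 against 35.8% of all genes called higher and 32.8% called lower. A list of 12 counted markers of adult gut, kidney and liver epithelium summed to 1.64 to 3.19 CPM in PrE-T and 2.90 to 3.37 CPM in EPI-T, with 6 markers at 0 in PrE-T.

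Against TBLC fewer of the relatives were higher in PrE-T, where 33.5% of all genes were called higher and 33.8% lower. The acyltransferases again had 7 of 8 called higher and none lower. Of the 6 adrenergic receptors none was called higher and 5 lower, and Adra2a was at 0.587 CPM in PrE-T and 9.03 CPM in TBLC on average. Of the 6 S100 genes 2 were higher and 3 lower, of the 6 galectins 2 and 3, of the 12 carbonic anhydrases 1 and 4, of the 6 phospholipases 1 and 2, and of the 5 aspartic proteases 2 and 1. Ctsd averaged 181 CPM in PrE-T and 380 CPM in TBLC. Neither plasminogen activator gene was called, with Plat at 8.18 CPM in PrE-T and 11.2 CPM in TBLC. Of the 8 genes of the dystroglycan list 3 were higher and 3 lower.

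The profiles of the 9 genes over the 43 groups were compared on log2(CPM + 0.5), as a description. Lgals2, Habp2 and Egflam followed the mean of the other members most closely (Pearson r of 0.979, 0.984 and 0.979), and S100g least (0.760). The closest pair was Lgals2 and Pla2g12b (0.988) and the most distant S100g and Car4 (0.617). Likeness was taken over 12467 genes that reached 5 CPM in a group, the 9 included. Outside the 9, those most like the mean profile were Adora1 (0.985), Amn (0.982), Srgn (0.980), Soat2 (0.979), Rhpn1 (0.978) and Pth1r (0.978). Amn encodes amnionless, the partner of cubilin in endocytosis, and Soat2 a cholesterol acyltransferase. Of the 6, Amn and Srgn are on the primitive endoderm list, Soat2 is on the visceral and Pth1r on the parietal list. For single members the nearest genes included Dab2, an endocytic adaptor, for Habp2 (0.982), Bmp6 for Adra2b (0.963) and the phosphatase gene Dusp9 for Car4 (0.963). All these values share the same libraries and depths and carry no test. The 43 groups include those whose levels chose the 9 genes, so likeness among them and to endoderm genes was favoured by that choice.

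Actinomycin D, which blocks transcription, separated Adra2b from the other 8 genes in diffTBLC. Adra2b was at 9.72 and 9.91 CPM at 0 h, 6.66 and 6.77 CPM at 1 h, 4.31 and 4.41 CPM at 2 h and 3.60 and 2.93 CPM at 3 h. The mean fell to 33.2% of its 0 h level, and the libraries of any hour did not overlap those of another. Its slope was -0.43 ± 0.05 log2 per hour relative to the centre of all transcripts (SE, edgeR quasi-likelihood adjusted p = 3.1e-07). A lower slope was found for 1196 of 14463 genes, or 8.27%.

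The other 8 genes had positive relative slopes, where 30.8% of all genes were called higher and 28.6% lower. Pla2g12b was at 18.4 and 17.8 CPM at 0 h, 21.7 and 19.9 CPM at 1 h, 23.6 and 23.2 CPM at 2 h and 25.2 CPM in both libraries at 3 h, a slope of 0.28 ± 0.03 (adjusted p = 3.9e-07). S100g had 0.29 ± 0.10, Lgals2 0.21 ± 0.04, Car4 0.18 ± 0.04, Habp2 0.16 ± 0.03, Pga5 0.16 ± 0.03, Egflam 0.13 ± 0.05 and Gpat3 0.09 ± 0.03. The median of the 9 was 0.16, against 0.01 for all genes. A positive relative slope means that the transcript fell less, or rose more, than the centre of all transcripts, not that its amount grew. No spike-in is described. The share of the library need not grow either: Gpat3 stood at 96.8% of its 0 h mean CPM at 3 h. Scaled on library totals, the median slope of all genes was -0.11, 1793 genes were called higher and 7118 lower in place of 4449 and 4139, and only Pla2g12b and Adra2b of the 9 passed the test. Without the 0 h libraries Egflam (0.02, adjusted p = 0.80) and Gpat3 (0.10, adjusted p = 0.056) did not pass, and leaving out single libraries ended the call of Gpat3, Egflam or S100g.

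The fall of Adra2b was seen in every diffTBLC arm. At 3 h its mean CPM stood at 34.4% of the 0 h level in siVirma and 22.0% in siNC1, and at 31.7% in siIgf2bp3 and 26.7% in siNC2. At 2 h the 5 arms lay between 44.4% and 50.3%. The other genes were less uniform over the arms: S100g at 3 h was at 226% of its 0 h level in siIgf2bp3 and 47.3% in siNC2, and at 110% in siVirma and 49.9% in siNC1, where the 0 h control libraries stood apart as described.

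**Figure D2:**
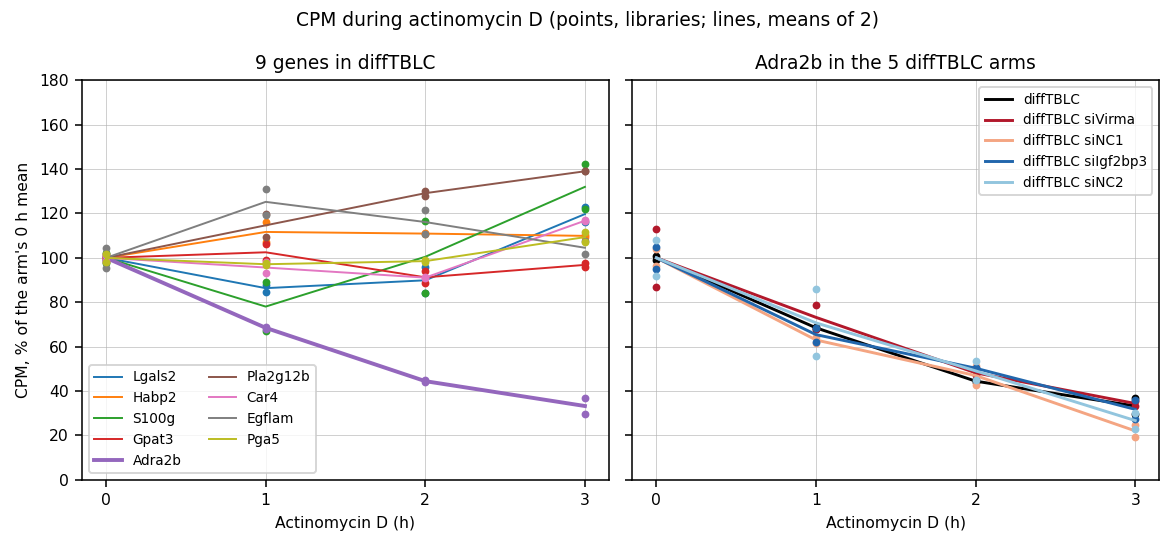
CPM during actinomycin D as a percentage of the 0 h mean of the same arm, for the 9 genes in diffTBLC (left) and for Adra2b in 5 diffTBLC arms (right), with points for libraries and lines for means of 2. Adra2b falls to 22.0% to 34.4% of its 0 h level by 3 h in each arm, while the other 8 genes end at 96.8% or more in diffTBLC.

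Without actinomycin D, siVirma lowered 2 of the 9 genes beyond the spread between libraries. Adra2b was at 3.78 and 3.77 CPM in siVirma and 12.6 and 10.9 CPM in siNC, a log2 change of -1.63 ± 0.33 (adjusted p = 7.3e-05). Pga5 was at 16.4 and 16.98 CPM in siVirma and 27.1 and 25.1 CPM in siNC (-0.64 ± 0.18, adjusted p = 0.012). Of all 12141 genes tested, 3.63% were called lower. Of the other 7 genes, Gpat3 (-0.73 ± 0.26, adjusted p = 0.070), Egflam (-0.65 ± 0.32) and Habp2 (-0.57 ± 0.22) had values below 0 and Car4 a value above (0.46 ± 0.19, adjusted p = 0.14). Lgals2 was split between the siVirma libraries, at 20.4 and 31.6 CPM, and siNC lay at 24.5 and 25.5 CPM. The median of the 9 was -0.57, against 0.00 for all genes. Primitive endoderm markers summed to 9812 to 9826 CPM in siVirma and 14407 to 14568 CPM in siNC, with 22 of 24 called lower, and their part in the changes of the 9 genes was not tested.

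In the libraries labelled siMettl3 only Pga5 of the 9 was called, at 15.6 and 15.0 CPM, against 27.1 and 25.1 CPM in siNC (-0.77 ± 0.18, adjusted p = 0.0076), where 0.453% of all genes were called lower. Adra2b was at 6.01 and 6.63 CPM in those libraries and 12.6 and 10.9 CPM in siNC, without overlap, but its change of -0.89 ± 0.29 did not pass the test (adjusted p = 0.13). S100g, at 1.11 and 1.28 CPM in the libraries labelled siMettl3 and 3.41 and 2.32 CPM in siNC, had -1.23 ± 0.62 (adjusted p = 0.50). Primitive endoderm markers summed to 12478 to 12621 CPM in the libraries labelled siMettl3 and 14407 to 14568 CPM in siNC, with 15 of 24 called lower, and their part in the change of Pga5 was not tested. Both comparisons share the siNC libraries. Leaving out siNC replicate 1 raised the adjusted p of Pga5 to 0.13 for siVirma and 0.18 for siMettl3, leaving out 1 knockdown library raised it to between 0.061 and 0.19, and the fall of Adra2b in siVirma kept its call in each case (adjusted p from 0.00074 to 0.0070). DESeq2 gave an adjusted p of 0.20 for Pga5 in siVirma and none for Adra2b, and called 279 genes in that comparison where edgeR called 863.

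During actinomycin D 8 of the 9 genes were lower in siVirma than in siNC1 at 0 h, where 27.2% of 13664 genes were called lower, and the same 8 were lower over 1 to 3 h, where 36.0% were. Car4 was the exception at both, at 18.1 and 18.3 CPM in siVirma and 17.9 and 18.0 CPM in siNC1 at 0 h (-0.17 ± 0.09, adjusted p = 0.095), and with 0.04 ± 0.05 over 1 to 3 h (adjusted p = 0.51). At 0 h all 9 values lie relative to a median of all genes that scaling on library totals moves to 0.24, with 6617 genes called higher and 2282 lower in place of 4520 and 3722.

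Egflam and Gpat3 had the largest falls over 1 to 3 h. Egflam was at 5.13 and 5.15 CPM in siVirma and 9.63 and 10.0 CPM in siNC1 at 0 h, and at 5.07 and 5.51 CPM in siVirma and 14.4 and 16.1 CPM in siNC1 at 3 h. Its change was -1.13 ± 0.13 at 0 h and -1.50 ± 0.07 over 1 to 3 h (adjusted p = 6.5e-19). Gpat3, at 6.54 and 6.66 CPM in siVirma and 15.4 and 13.4 CPM in siNC1 at 0 h, changed by -1.32 ± 0.11 at 0 h and -1.48 ± 0.06 later. Habp2 fell by a similar amount at both, -1.30 ± 0.12 and -1.28 ± 0.06.

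The other 5 genes had smaller differences after 0 h, and the change between 0 h and 1 to 3 h itself passed the test for these 5 and for Egflam (62.9% of genes did). Adra2b was at 3.49 and 4.54 CPM in siVirma and 9.07 and 9.78 CPM in siNC1 at 0 h, a change of -1.43 ± 0.14, and changed by -0.94 ± 0.12 over 1 to 3 h. Pla2g12b changed by -1.27 ± 0.11 and -0.72 ± 0.06, Pga5 by -1.08 ± 0.06 and -0.76 ± 0.03, Lgals2 by -0.61 ± 0.07 and -0.18 ± 0.04, and S100g, with under 4 CPM in every library, by -2.02 ± 0.29 and -0.83 ± 0.19. The median of the 9 was -1.27 at 0 h and -0.83 over 1 to 3 h, against 0.05 and 0.00 for all genes. Primitive endoderm markers summed to 4113 to 4134 CPM in siVirma and 5934 to 6181 CPM in siNC1 at 0 h. Over 1 to 3 h all 24 were called lower, with a median of -1.25, and their part in the changes of the 9 genes was not tested.

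With siIgf2bp3 the direction depended on the hour. At 0 h 6 of the 9 genes were called lower than in siNC2, where 24.6% of 13580 genes were. None of the 9 was called higher, where 5590 of the 13580 genes were. Over 1 to 3 h 5 were called higher, where 32.9% of genes were, and 3 lower, where 37.1% were. Lgals2 was at 33.6 and 31.9 CPM in siIgf2bp3 and 34.1 and 36.3 CPM in siNC2 at 0 h (-0.18 ± 0.07). At 3 h it was at 51.3 and 45.8 CPM in siIgf2bp3 and 26.9 and 26.6 CPM in siNC2, and over 1 to 3 h its difference was 0.74 ± 0.04 (adjusted p = 6.4e-16).

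S100g was at 1.83 and 1.76 CPM in siIgf2bp3 and 3.56 and 3.23 CPM in siNC2 at 0 h (-0.996 ± 0.204), and its difference over 1 to 3 h was 0.95 ± 0.13. Pla2g12b had -0.49 ± 0.11 and 0.45 ± 0.06, and Pga5 -0.22 ± 0.05 and 0.42 ± 0.03. Car4 was not called at 0 h (-0.05 ± 0.08) and was higher later (0.41 ± 0.05). Gpat3 was lower at both, by -0.43 ± 0.10 and -0.34 ± 0.06. Egflam (0.22 ± 0.10, adjusted p = 0.069) and Habp2 (-0.10 ± 0.09) were not called at 0 h and were lower over 1 to 3 h (-0.43 ± 0.05 and -0.17 ± 0.05). Adra2b was lower at 0 h (-0.39 ± 0.14, adjusted p = 0.017) and not called later (-0.10 ± 0.12, adjusted p = 0.47).

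The change between 0 h and 1 to 3 h itself passed the test for Lgals2, S100g, Pla2g12b, Pga5, Car4 and Egflam (73.2% of genes did). The medians of the 9 were -0.22 at 0 h and 0.41 over 1 to 3 h, against 0.14 and -0.02 for all genes. On library totals the medians of all genes were 0.22 and -0.15, with 6316 genes called higher and 2768 lower at 0 h in place of 5590 and 3338, and 3041 higher and 6557 lower over 1 to 3 h in place of 4465 and 5038. Of the 24 primitive endoderm markers, 9 were higher and 8 lower at 0 h and 2 were higher and 17 lower over 1 to 3 h. Of 12 tested visceral endoderm markers, 2 were higher and 7 lower at 0 h and 7 were higher and 2 lower over 1 to 3 h, and their part in the values of the 9 genes was not tested. At 0 h the calls of Lgals2 (adjusted p up to 0.23) and Adra2b (up to 0.14) were lost on library totals or without a single library, while Egflam was called higher on library totals (0.30 ± 0.10, adjusted p = 0.010). The 1 to 3 h call of Habp2 was lost with DESeq2 (adjusted p = 0.053).

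**Figure D3:**
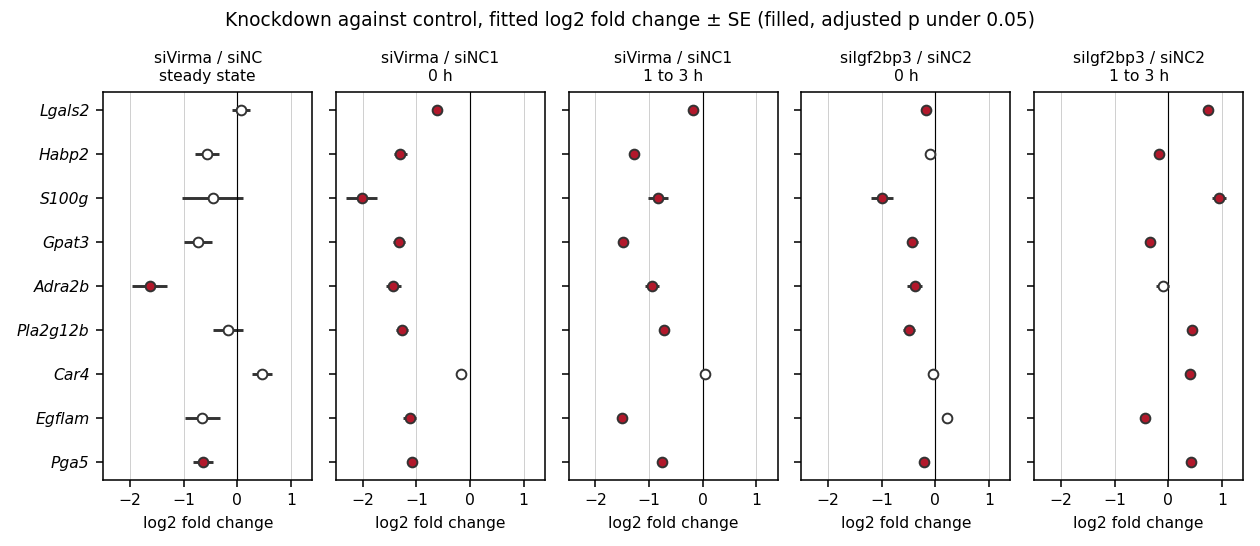
Fitted log2 fold changes ± SE of the 9 genes for siVirma against siNC without actinomycin D, siVirma against siNC1 and siIgf2bp3 against siNC2 during actinomycin D, filled where the adjusted p was under 0.05. In the siVirma panels of the course values are below 0 for all 9 genes at 0 h and for 8 over 1 to 3 h. For siIgf2bp3 over 1 to 3 h 5 genes lie above 0.

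IGF2BP3 immunoprecipitates were enriched most for Adra2b among the 9 genes. It was at 21.5 and 17.2 CPM in IP and 7.88 and 6.11 CPM in input, a log2 difference of 1.67 ± 0.17 (adjusted p = 1.9e-22). Habp2 was also higher in IP, at 25.7 and 30.3 CPM against 20.8 and 22.9 CPM in input (0.55 ± 0.11). Car4 (0.31 ± 0.09) and Gpat3 (0.29 ± 0.13) were called higher by small amounts, but both lost the call with DESeq2 (adjusted p of 0.057 and 0.25), on library totals and without single libraries. At this threshold 35.0% of 12904 genes were called higher and 34.8% lower, so that 4 of 9 is close to the background.

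A further 4 genes were lower in IP than in input. S100g was at 2.38 and 2.42 CPM in IP and 7.51 and 7.64 CPM in input (-1.46 ± 0.27, adjusted p = 2.3e-07). Pla2g12b was at 6.49 and 6.26 CPM in IP and 15.96 and 15.09 CPM in input (-1.08 ± 0.18). Lgals2 (-0.64 ± 0.09) and Pga5 (-0.55 ± 0.07) were lower too, and Egflam did not differ beyond its error (-0.03 ± 0.15, adjusted p = 0.88). The median of the 9 was -0.03, against -0.01 for all genes. On library totals the median of all genes was -0.21, with 3377 called higher and 5748 lower in place of 4512 and 4485. Of the 24 primitive endoderm markers 18 were higher in IP and 4 lower, with a median of 0.61. Other endoderm lists differed: of 13 tested visceral endoderm markers 2 were higher and 5 lower, with a median of -0.54. Of 10 parietal endoderm markers 4 were higher and 4 lower.

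The libraries labelled YTHDF2 held few counts of the 9 genes in both IP and input, although the labels give 3 days in SLM for them as well. Primitive endoderm markers summed to 3693 to 3699 CPM in IP and 3045 to 3094 CPM in input, against 15456 to 15650 CPM in the IGF2BP3 input and 9816 to 9865 CPM in diffTBLC at 0 h. S100g had no count in any of the 4 libraries, and Pga5 had 1 count in each IP and 2 and 1 counts in the inputs. Only Adra2b, Car4, Egflam and Gpat3 passed the filter on low counts, Adra2b and Egflam through their IP libraries, where they were high. Adra2b had 92 and 99 counts in IP and 2 and 6 counts in input, at 8.44 and 7.82 CPM in IP and 0.805 and 2.04 CPM in input. Its log2 difference was 2.42 ± 0.40, and with no filter on counts, where each counted gene was tested, it was 2.52 ± 0.38 (edgeR quasi-likelihood adjusted p = 3.3e-10). Of 12364 genes, 40.2% were called higher and 38.8% lower. Egflam had 25 and 28 counts in IP and 3 and 2 counts in input, and its difference of 1.34 ± 0.60 with no filter (adjusted p = 0.045) lost the call with DESeq2 (adjusted p = 0.25). Car4 was lower in IP (-1.07 ± 0.34, adjusted p = 0.0036), a call lost with DESeq2 (adjusted p = 0.062) and without replicate 1 of the input (adjusted p = 0.11). Gpat3 was not called (-0.29 ± 0.51). Habp2, Pla2g12b, Lgals2 and Pga5 had 7 counts or fewer in each of the 4 libraries and were not tested.

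**Figure D4:**
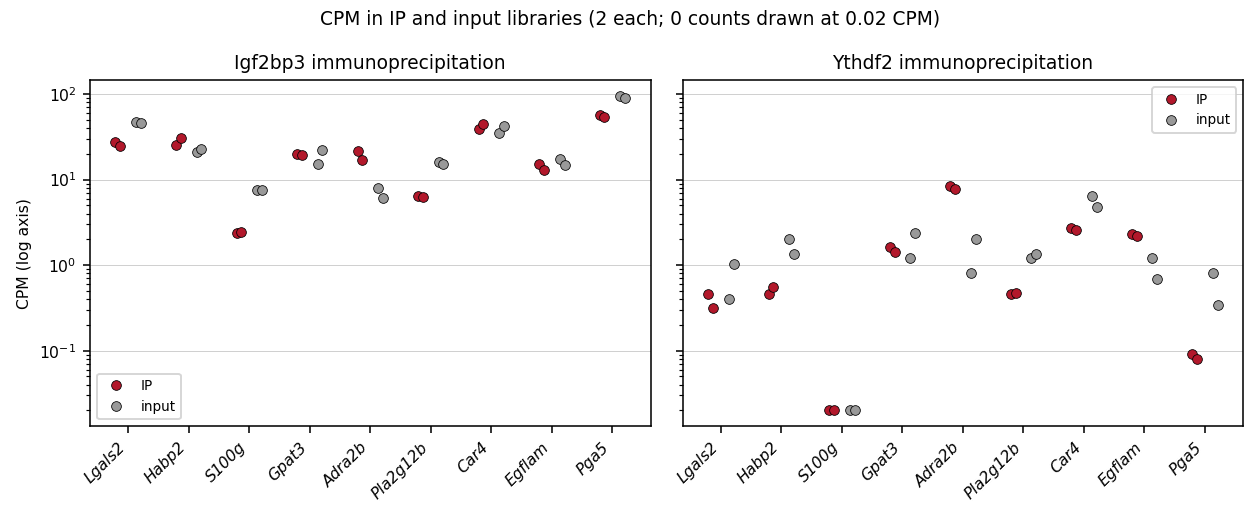
CPM of the 9 genes in IP and input libraries of both immunoprecipitations on a log axis, with 2 points each. In IGF2BP3 libraries Adra2b lies higher in IP and S100g, Pla2g12b, Lgals2 and Pga5 lie lower, and in YTHDF2 libraries all 9 genes lie under 10 CPM, with Adra2b higher in IP.

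After 8 h in SLM the 9 genes had low counts, as in the control culture. Pga5 had 39 and 46 counts in TBLC_PlaB- and 51 and 54 counts in TBLC_Ctrl at 0 h, and Gpat3 22 and 32 counts, against 19 and 27. The remaining 7 genes had 12 counts or fewer in each of those libraries. Pga5 (-0.36 ± 0.21), Gpat3 (0.18 ± 0.30), Habp2 (-0.46 ± 0.50) and S100g (-1.39 ± 0.72) passed the filter, and none was called by edgeR's quasi-likelihood test or by DESeq2, where 1.25% of 14107 genes were. At an unadjusted p under 0.05 in the edgeR quasi-likelihood test the count was also 0 of 4, against 1407 of all 14107 genes. The lowest p of the 4 was 0.058, for S100g. At counts this low a change of a size like these standard errors was not detectable.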

How the data were processed

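Raw counts of 86 libraries in 9 tables were used as deposited by the authors, with 1 row per gene symbol and 21812 symbols in each table. The submitters' processing notes name STAR 2.7.11b, Subread, FastQC 0.12.1, DESeq2 and Trim Galore as tools and mm39 as the build. Per the labels' protocols RNA was extracted with TRIzol. Both library kits they name keep strand, and which kit or sequencer served which library is not given in the sources used here. Columns named TBLC_S were read as TBLC_PlaB-, the arm of that table with no other columns. The m6A peaks and 12 m6A samples were not analysed here.

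The tables were normalised separately by TMM. Tests were edgeR quasi-likelihood fits (edgeR 4.0.16, R 4.3.3) on the genes kept by filterByExpr, with Benjamini-Hochberg adjustment over all genes of a table and a threshold of 0.05, and log2 values carry the fit's standard error. In actinomycin D tables, means were fitted per arm and hour, and diffTBLC slopes against hours. CPM are counts per 1000000 counts of a library. Ratios of summed counts carry exact 95% counting intervals, and a group without counts was set to a floor of 3. The fits were tested on simulated data. Alternatives were RLE size factors, library totals, no filter, fits of the compared groups only, a replicate block, DESeq2 1.42.0, and each library left out in turn, where a lone library is assumed to vary like the others. Replicates differed in all 43 groups.

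Members, gene lists, motifs and tests were chosen with earlier results of these data known. Relatives and marker lists were named by rule: up to 4 genes of a list, those with the lowest adjusted p, or any gene of a list whose counts are given. Differences between hours were added after seeing the data. Transcript lengths were not used, so levels are not compared between genes.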

Additional observations from a re-analysis of the deposited data

Results flagged for a closer look

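For 6 of the 9 genes the difference between siVirma and siNC1 over 1 to 3 h of actinomycin D departed from that at 0 h, by a test of the difference itself (edgeR quasi-likelihood, adjusted p under 0.05, 62.9% of 13664 genes called). The log2 difference of 1 to 3 h minus 0 h was 1.19 ± 0.36 for S100g, 0.54 ± 0.13 for Pla2g12b, 0.48 ± 0.19 for Adra2b, 0.43 ± 0.08 for Lgals2, 0.32 ± 0.07 for Pga5 and -0.37 ± 0.15 for Egflam. Positive values mean that the gap below siNC1 was smaller at the later hours. With 62.9% of all genes called, 6 of 9 is close to the background. Those of Adra2b and Egflam lost the call with DESeq2 (adjusted p of 0.13 and 0.10). On library totals, where the median of all genes was -0.23, the values were 0.36 for Pla2g12b, 0.24 for Lgals2 and -0.56 for Egflam. Pga5 (0.13 ± 0.07, adjusted p = 0.10) and Adra2b (0.30 ± 0.19, adjusted p = 0.17) then lost the call and Gpat3 gained one (-0.35 ± 0.13, adjusted p = 0.024).

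For siIgf2bp3 against siNC2 the same test passed for 6 genes, where 73.2% of 13580 genes were called. That count of the listed genes is not above the background. The difference was 1.95 ± 0.24 for S100g, 0.94 ± 0.13 for Pla2g12b, 0.92 ± 0.08 for Lgals2, 0.64 ± 0.06 for Pga5, 0.46 ± 0.09 for Car4 and -0.65 ± 0.11 for Egflam. These calls held on library totals, where the median of all genes was -0.38 and Habp2 was called too (-0.29 ± 0.10, adjusted p = 0.013), and with no filter Adra2b was called (0.37 ± 0.16, adjusted p = 0.040). Both arms lean on control libraries at 0 h in which Virma was at 39.5 and 39.8 CPM (siNC1) and 43.1 and 34.9 CPM (siNC2), against 69.3 and 64.9 CPM and 79.5 and 78.4 CPM at 1 h. Their part in these differences was not tested.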

How the results depend on the processing

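Of 554 values of single genes under the alternatives that kept all libraries, 515 kept their direction and side of the threshold, 24 lost the call, 6 gained one and 9 changed sign; of 784 values with 1 library left out, the counts were 724, 36, 5 and 19. The falls of Adra2b in siVirma and during actinomycin D, and its enrichment with IGF2BP3, kept their calls under each alternative that gave a value. DESeq2 called 279 genes (863 by edgeR) and 0 of the 9 for siVirma against siNC, where 6 of the 9 had no adjusted p. It called 48 genes (105) and 0 of the 9 for siMettl3, where none of the 9 had an adjusted p. For YTHDF2 it called 1 of the 4 members tested (3 by edgeR, which called 9764 of 12364 genes there). The YTHDF2 counts of members here and below cover only genes that passed the filter. Adra2b and Egflam passed it through their IP libraries, where they were high, so these counts are no support. For TBLC_PlaB- it called 73 genes (177), where a fit of only the groups compared called 94. Library totals left 2 of the 9 slopes called (9). Signs changed on library totals for Car4 at 0 h in siVirma (0.022) and siIgf2bp3 (0.037), Gpat3 in the slope (-0.031), Habp2 (-0.16, siVirma) and Gpat3 (-0.13, siIgf2bp3) in 1 to 3 h minus 0 h, and in the last for Habp2 with RLE factors (0.032), DESeq2 (0.032) and no filter (0.0070); Egflam in IGF2BP3 was at 0.044 with no filter. The cause was not tested. With 1 library left out, genes called ran from 495 to 606 for siVirma and 41 to 49 for siMettl3 without actinomycin D and 70 to 207 for TBLC_PlaB-, with 1 to 2, 0 to 1 and 0 of the 9. The number of members called also changed with the library left out for YTHDF2, IGF2BP3 and siVirma in 1 to 3 h minus 0 h. With all libraries kept, 9764 of 12364, 8997 of 12904 and 8595 of 13664 genes were called in these comparisons. Ranges that crossed 0 were -0.29 to 0.34 for Lgals2 in siVirma, -0.17 to 0.16 for Car4 and -0.073 to 0.097 for Egflam in siMettl3, -0.076 to 0.14 for Habp2 in siVirma and -0.10 to 0.076 in siIgf2bp3 and -0.068 to 0.23 for Gpat3 in siIgf2bp3 (1 to 3 h minus 0 h), -0.14 to 0.0046 for Car4 in siIgf2bp3 at 0 h, -0.19 to 0.020 for Adra2b in siIgf2bp3 over 1 to 3 h, -0.14 to 0.11 for Egflam in IGF2BP3, -0.65 to 0.31 for Gpat3 in YTHDF2, and -0.12 to 0.42 for Gpat3 in TBLC_PlaB-. Same-numbered replicates deviated together weakly at most. The correlation of their deviations exceeded 0.1 in 0 of 28 group pairs in 2 of the actinomycin D tables. In those of siVirma and siIgf2bp3 it did so in 3 and 4 of 28, with highest values of 0.12 and 0.15. With a replicate block the calls were 884 genes and 2 of the 9 for siVirma without actinomycin D, 109 genes and 1 for siMettl3, 8367 genes at 0 h and 9846 over 1 to 3 h with 8 of the 9 at each for siVirma, 9035 and 9611 with 6 and 8 for siIgf2bp3, 8478 and 9 for the slope, 8940 and 8 for IGF2BP3, 9838 and 3 for YTHDF2 and 219 and 0 for TBLC_PlaB-, and no call of the 9 changed. Low counts limit S100g outside the PrE-T and TBLC libraries of the sorted table, and all 9 genes in the YTHDF2 and TBLC_PlaB- libraries.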

Other observations

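Values of the 9 genes that belong to no comparison were those of undifferentiated cultures during actinomycin D. Pga5 stood at 11.7 and 11.1 CPM at 0 h and 12.7 and 11.1 CPM at 3 h in TBLC, and Gpat3 at 2.26 and 2.44 CPM and at 1.94 and 2.69 CPM. Adra2b, which fell in each diffTBLC arm, was at 0.462 and 0.853 CPM at 0 h and 0.173 and 0.142 CPM at 3 h in TBLC.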
